A study of Homo sapiens with 12 samples.

Results

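The 55 genes described here encode proteins of ribosome biogenesis and of the nucleolus. They were named in a list for this work and taken as the rows of the count table with those symbols. All 55 were present among 59050 gene names, and all 55 passed the filter on low counts that left 16208 genes for testing. RNA was sequenced in bulk from MyLa cells (MYLA in the labels), an established line of cutaneous T cell lymphoma, in a study of synergy between 2 drugs. Romidepsin is an inhibitor of histone deacetylases, and afatinib binds ERBB family kinases irreversibly. The 4 groups of 3 libraries were DMSO alone, 3.2 nM romidepsin, 5.7 uM afatinib dimaleate, and both drugs at these doses, called the combination below. All groups, DMSO included, were kept for 24 h with interleukin-2 at 20 ng/mL and the same volume of DMSO. The study used 1 cell line here, and it is not stated in the labels that replicate libraries stem from separate cultures. The p-values therefore measure the spread between these libraries, which may be technical.

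Ribosomes are assembled mainly in the nucleolus, where RNA polymerase I copies the ribosomal DNA into a long precursor RNA. Small nucleolar ribonucleoproteins (snoRNPs) of the box C/D and box H/ACA kinds direct methylation and pseudouridylation of that precursor, and a large set of assembly factors cuts and folds it and adds ribosomal proteins, giving a small and a large subunit. Growing lymphoid cells make many ribosomes, and many of the genes involved are known targets of the transcription factor MYC, which binds with its partner MAX to the E-box CACGTG.

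The promoters of the genes were examined in RefSeq windows of 300 bases (GRCh38.p14), from 250 bases before to 50 bases after the gene start, which matched 47 of the 55 genes by symbol. Some genes have more than 1 window, and a gene was counted if any of its windows matched. The E-box CACGTG, which reads the same on both strands, was present in 23 of the 47 genes (48.9%), against 1242 of 10003 tested genes with a window (12.4%). It was in 7.26% of all 35116 windows. Shares of all windows are per window and not per gene, here and below, so they are not a like comparison. The ETS core CCGGAAG, searched on both strands, was present in 19 of 47 (40.4%) against 21.9% of the tested genes and 10.3% of all windows. The GC box GGGCGG, searched on both strands, was present in 37 of 47 (78.7%) against 75.1% and 44.95%. The motifs were searched separately, so that a base could belong to more than 1 of them, and no test was made on these shares. In 21 of the genes an E-box began within 40 bases of the gene start. The following 12 sites of 30 bases, from genes whose levels are described below, show how the same 6 letters sit in different surroundings near the start. The E-box is in capitals, each site is read 5′ to 3′ on the strand of the gene, and its position is counted from the gene start. A match describes letters in the window and not binding.
DDX21, E-box from -31, chr10:68956604-68956633, plus strand: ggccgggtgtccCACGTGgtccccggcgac
MYBBP1A, E-box from 28, chr17:4555340-4555369, minus strand: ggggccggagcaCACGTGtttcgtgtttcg
FBL, E-box from 7, chr19:39846356-39846385, minus strand: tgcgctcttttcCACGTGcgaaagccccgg
GAR1, E-box from 32, chr4:109815781-109815810, plus strand: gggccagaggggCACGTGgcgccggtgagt
NOP10, E-box from -11, chr15:34343130-34343159, minus strand: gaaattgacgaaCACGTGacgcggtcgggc
UTP20, E-box from -10, chr12:101280083-101280112, plus strand: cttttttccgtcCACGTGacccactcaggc
UTP4, E-box from -16, chr16:69132621-69132650, plus strand: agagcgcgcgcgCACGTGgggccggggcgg
WDR43, E-box from 4, chr2:28894658-28894687, plus strand: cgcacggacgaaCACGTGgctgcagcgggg
LTV1, E-box from 29, chr6:143843354-143843383, plus strand: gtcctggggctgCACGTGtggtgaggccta
GNL3, E-box from 7, chr3:52686026-52686055, plus strand: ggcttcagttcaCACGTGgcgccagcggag
PES1, E-box from 14, chr22:30591880-30591909, minus strand: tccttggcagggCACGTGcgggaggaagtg
MRTO4, E-box from 15, chr1:19251807-19251836, plus strand: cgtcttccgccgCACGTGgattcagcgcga

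Libraries held 8972228 to 12696653 counts, and 3 counts corresponded to 0.236 to 0.334 CPM (counts scaled to a common library total with TMM factors), a limit that covers counting error only. Every one of the 55 genes had at least 12 counts in every library. Mitochondrially encoded genes took 12.9 ± 1.69% of counts in DMSO, 12.8 ± 0.955% with romidepsin, 10.9 ± 0.165% with afatinib and 11.9 ± 0.804% with the combination (SD, n = 3). Of 15 T cell markers, CD3D, CD3G, CD247, CD2, CD8A, TRAC, TRBC2, IL2RA and CCR4 had at least 70 counts in every library. No library had more than 12 counts of TRBC1, 4 of CD3E, 5 of CD5, 2 of CD7 or 1 of CD4 and LCK. The summed T cell markers moved with treatment, at 1926 to 2060.3 CPM in DMSO, 662 to 677 with romidepsin, 1552 to 1564 with afatinib and 416 to 437 with the combination. Of 5 fibroblast markers, COL1A1 and COL3A1 made up most of a sum of 167 to 190.3 CPM in DMSO, 25.4 to 31.4 with romidepsin, 101 to 106 with afatinib and 15.2 to 17.9 with the combination, and DCN was at 0 in every library. The 10 keratinocyte markers summed to 243 to 297, 197 to 199, 263 to 297 and 179 to 191 CPM in the same order, with KRT1 at 0 in every library. Over all libraries the 5 B cell markers summed to 1.95 to 7.07 CPM and the 5 myeloid markers to 22.1 to 42.3 CPM. KRT5 had 59 and 94 counts in DMSO replicates 1 and 2, 126 in afatinib replicate 3, 43 in combination replicate 1 and no more than 1 elsewhere. The part of these marker levels in the results below was not tested, and calls against DMSO that were lost without the 4 libraries with KRT5 are given below with both values.

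As a group the 55 genes fell with each drug and fell further with the combination. They took 0.887 ± 0.0248% of all counts in DMSO, 0.625 ± 0.00667% with romidepsin, 0.629 ± 0.00393% with afatinib and 0.459 ± 0.00855% with the combination (SD, n = 3). Their summed level was 9287, 9381 and 9001 CPM in the DMSO libraries, 6519, 6438 and 6347 with romidepsin, 6126, 6163 and 6050.4 with afatinib, and 4466, 4361 and 4519 with the combination. No library of a treated group reached the DMSO range, and every combination library lay below every library of either single drug. NCL, the most abundant of the genes, made up 16.5 ± 0.178% of the sum in DMSO and 14.5 ± 0.309% with the combination, and without it the sum still fell from 7704 ± 171 to 3802 ± 64.8 CPM. These are levels relative to all RNA in a library. A change in the number of cells or in the total RNA per cell is not seen in them, and absolute levels are not known.

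Gene by gene, edgeR's quasi-likelihood test called 37 of the 55 lower and 2 higher with romidepsin at an adjusted p below 0.05, where 31.5% of all tested genes were lower and 31.1% higher. With afatinib 50 were lower and 0 higher, against 23.3% and 22% of all genes. At an unadjusted p below 0.05, edgeR placed 0 higher and DESeq2 called 0 higher with afatinib. With the combination 49 were lower and 0 higher, against 37.1% and 37.2%, with 1 higher at an unadjusted p below 0.05 and 0 by DESeq2. The median log2 fold change of the 55 was -0.44 with romidepsin, -0.50 with afatinib and -0.96 with the combination, while the medians of all tested genes were within 0.01 of 0. Called falls of at least 2-fold were the exception with 1 drug, at 3 genes for romidepsin (10.9% of all genes) and 3 for afatinib (2.54%). They concerned 26 genes with the combination (18.3%). Called rises of at least 2-fold numbered 0 among the 55 in each treated group. Among the 16208 tested genes they numbered 2157 with romidepsin, 1031 with afatinib and 3424 with the combination.

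The order of the groups was shared by most of the genes. In 40 of the 55 the mean was highest in DMSO and lowest with the combination, an order found in 20.7% of all tested genes. Both single drugs lowered 36 of the genes, against 12.3% of all genes, and these comparisons share the DMSO libraries. Another 12 were called lower with afatinib and were not called with romidepsin, and in each of these 12 the level with romidepsin was also called above that with afatinib. How many of all tested genes share this pattern was not counted, so it cannot be called particular to the 55. POLR1A and DDX10 were lower with afatinib and higher with romidepsin. SURF6, a nucleolar protein of large subunit assembly, was called lower with romidepsin and not with afatinib, and its levels with the 2 drugs were not called different (log2 -0.29 ± 0.15, edgeR adjusted p = 0.0834). Without DMSO replicate 3 SURF6 was called lower with afatinib (-0.44), and without afatinib replicate 2 the drugs were called different (-0.40). RRN3, NOP2 and RCL1 were not called lower in any treated group. Leaving out the 4 libraries with KRT5 leaves 1 library in DMSO and 2 each in afatinib and the combination. Fewer genes were then called lower than DMSO with each treatment, both among the 55 and among all tested genes.

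Each call lost without these 4 libraries is given here as its log2 change with all libraries and then without them. With romidepsin 11 calls were lost. They were those of NPM1 (-0.25 and -0.17), NPM3 (-0.35 and -0.26), NOLC1 (-0.20 and -0.16), POLR1C (-0.46 and -0.30), NHP2 (-0.41 and -0.20), BYSL (-0.40 and -0.23), GNL2 (-0.24 and -0.14), BOP1 (-0.17 and -0.065), RRP1B (-0.13 and -0.055), DDX18 (-0.17 and -0.13) and SURF6 (-0.58 and -0.20), while NOC2L became a call (0.094 and 0.27). With afatinib 18 calls were lost. Of these, POLR1A (-0.14 and -0.16), POLR1C (-0.48 and -0.36), POLR1E (-0.30 and -0.27), UBTF (-0.30 and -0.20), NOP58 (-0.35 and -0.22), NHP2 (-0.45 and -0.21), RRP9 (-0.35 and -0.13), UTP4 (-0.77 and -0.54) and WDR75 (-0.34 and -0.37) come first in the order of roles. The others were BYSL (-0.56 and -0.35), NOB1 (-0.26 and -0.0015), RRP12 (-0.43 and -0.32), DDX10 (-0.50 and -0.33), WDR12 (-0.31 and -0.25), PPAN (-0.34 and -0.32), NIP7 (-0.31 and -0.13), NOC3L (-0.43 and -0.37) and DDX51 (-0.20 and -0.19). With the combination 5 calls were lost, those of POLR1E (-0.21 and -0.15), NOP10 (-0.72 and -0.39), RRP9 (-0.27 and -0.10), WDR12 (-0.25 and -0.19) and SURF6 (-0.76 and -0.44). No direction turned in any of these genes.

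**Figure D1:**
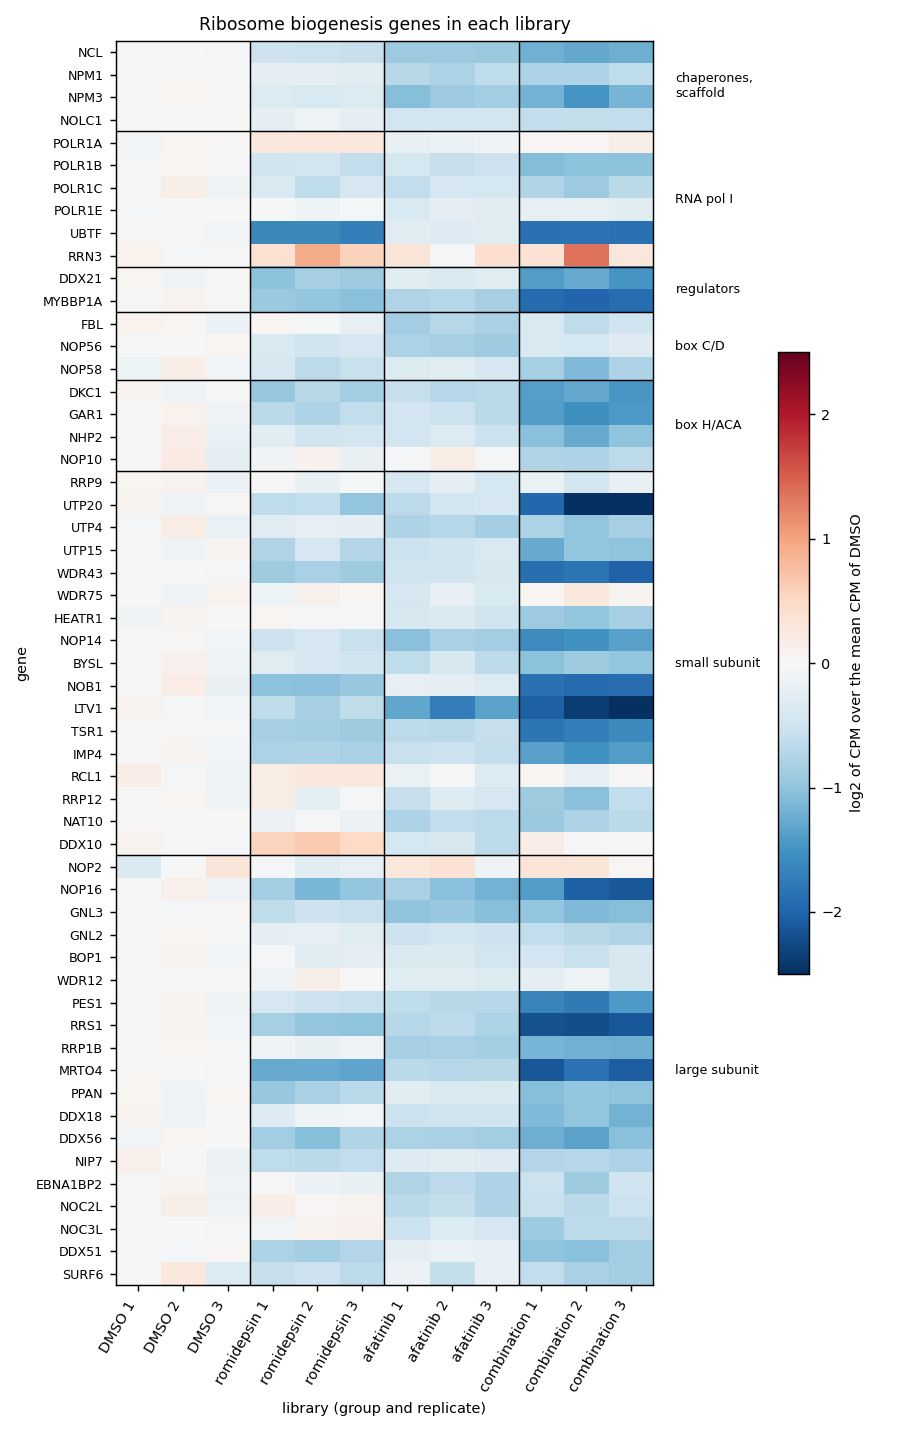
Level of each of the 55 genes in each of the 12 libraries, as the log2 of its CPM over the mean CPM of the 3 DMSO libraries, with blue for lower and red for higher. Rows are grouped by role and columns by treatment. Most rows are pale blue with either drug and darker with the combination, and RRN3, DDX10 and POLR1A are red with romidepsin.

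Transcripts of the 4 genes for nucleolar histone chaperones and scaffold proteins all fell in every treated group. NCL (chr2:231453531-231483641 in the count table's annotation) encodes nucleolin, which binds precursor ribosomal RNA and histones. Its level was 1546, 1528 and 1483 CPM in DMSO, 1057, 1041 and 1014 with romidepsin, 807, 812 and 795 with afatinib and 664, 623 and 651 with the combination. The 4 groups did not overlap, and each treatment lay below the one before in that list. NCL changed by -0.55 ± 0.050 with romidepsin, -0.92 ± 0.051 with afatinib and -1.23 ± 0.051 with the combination (log2 ± SE, edgeR adjusted p of 1.52e-13 or below). NPM1, which encodes nucleophosmin, a histone chaperone of the granular part of the nucleolus, had 292, 299 and 286 CPM in DMSO, 248, 249 and 243 with romidepsin, 181, 168 and 189 with afatinib and 170.3, 171 and 187 with the combination. Its afatinib and combination libraries overlapped, and the difference between them was -0.025 ± 0.058 (edgeR adjusted p = 0.72, 95% interval -0.14 to 0.088). NPM1 fell by 0.25 on the log2 scale with romidepsin, by 0.71 with afatinib and by 0.73 with the combination (edgeR adjusted p of 0.000165 or below). NPM3, a relative of NPM1, had 39.4, 40.5 and 38.02 CPM in DMSO, 30.8, 30.4 and 31.2 with romidepsin, 18.8, 21.02 and 21.8 with afatinib and 17.2, 14.2 and 17.6 with the combination. It showed the lowest afatinib value of the 4 (-0.93 ± 0.10) and the lowest combination value (-1.27 ± 0.10). NOLC1, a scaffold protein on which snoRNPs assemble, changed by -0.20 ± 0.051, -0.48 ± 0.051 and -0.61 ± 0.051 with romidepsin, afatinib and the combination. In all 4 genes afatinib lowered the level more than romidepsin did, with differences of 0.27 to 0.58 between the drugs (edgeR adjusted p of 6.46e-06 or below).

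Among the 6 genes of RNA polymerase I and its factors, UBTF had the lowest value with romidepsin and with the combination and POLR1B with afatinib, and the largest subunit of the enzyme did not follow UBTF. UBTF (chr17:44205033-44221626) encodes the upstream binding factor, an HMG-box protein of active ribosomal DNA. It had 605, 613 and 572 CPM in DMSO, 194, 195 and 182 with romidepsin, 489.9, 479.5 and 486 with afatinib and 165, 165 and 164 with the combination. The romidepsin libraries lay far below DMSO, the afatinib libraries just below DMSO, and no 2 groups overlapped. UBTF was 3.13-fold lower with romidepsin (-1.65 ± 0.054, edgeR adjusted p = 3.13e-30), 1.23-fold lower with afatinib (-0.30 ± 0.052) and 3.62-fold lower with the combination (-1.86 ± 0.054). The 2 drugs differed in their effect on it by -1.35 ± 0.054 (edgeR adjusted p = 5.96e-27), the largest difference of that direction among the 55 genes.

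POLR1A, the largest catalytic subunit, moved in the other direction with romidepsin, at 170.3, 185 and 183 CPM in DMSO, 215, 219.7 and 217 with romidepsin, 159, 161 and 169 with afatinib and 183, 185 and 199 with the combination. All 3 romidepsin libraries lay above all 9 others, and the combination libraries overlapped DMSO. It rose by 0.27 ± 0.057 with romidepsin (edgeR adjusted p = 4.87e-05), was -0.14 ± 0.058 with afatinib (adjusted p = 0.0489) and 0.075 ± 0.057 with the combination (adjusted p = 0.234). With libraries scaled by size alone the combination value was 0.18 and called. The afatinib call was lost when any 1 DMSO or afatinib library, romidepsin replicate 3 or combination replicate 1 was left out, with values of -0.16 to -0.10. POLR1B, the other large catalytic subunit, fell instead, with 125, 132 and 126 CPM in DMSO, 90.5, 91.4 and 83.8 with romidepsin, 94.3, 85.2 and 88.7 with afatinib and 60.5, 62.6 and 62.5 with the combination. Its single-drug groups overlapped each other and lay between DMSO and the combination, and its changes were -0.53 ± 0.065, -0.51 ± 0.065 and -1.04 ± 0.066 (edgeR adjusted p of 4.88e-09 or below). POLR1C, a subunit shared with RNA polymerase III, changed by -0.46 ± 0.11, -0.48 ± 0.11 and -0.77 ± 0.11, and POLR1E, a smaller subunit specific to RNA polymerase I, by -0.053 ± 0.094 (not called), -0.30 ± 0.10 and -0.21 ± 0.094. The combination call of POLR1E (edgeR adjusted p = 0.0414) was lost in DESeq2 (-0.17) and without any 1 DMSO library, afatinib replicate 1 or 3 or combination replicate 1 or 3 (-0.22 to -0.16). Its afatinib call was lost without afatinib replicate 1 (-0.24).

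RRN3, which links the enzyme to its promoter, was the only one of the 55 with a mean under 5 CPM, at 1.33, 1.21 and 1.23 CPM in DMSO, 1.63, 2.41 and 1.88 with romidepsin, 1.57, 1.23 and 1.69 with afatinib and 1.62, 3.21 and 1.53 with the combination. All romidepsin and combination libraries lay above DMSO, and afatinib overlapped DMSO. The gene rested on 12 to 42 counts per library, and reads shared with near-identical copies elsewhere in the genome were left out of the count table. Its values of 0.62 ± 0.37, 0.25 ± 0.38 and 0.76 ± 0.36 were not called (edgeR adjusted p = 0.141, 0.628 and 0.055), and the last became a call without combination replicate 1 (0.90) or replicate 3 (0.95) and without afatinib replicate 1 (0.80) or replicate 3 (0.80). DDX21 and MYBBP1A stand close to the polymerase. DDX21, an RNA helicase of the nucleolus, had 559, 505 and 546 CPM in DMSO, 264, 300.1 and 289 with romidepsin, 437, 418 and 435 with afatinib and 205, 225 and 194 with the combination. MYBBP1A, a Myb-binding protein of the nucleolus, had 433, 473 and 427 CPM in DMSO, 235, 226 and 216 with romidepsin, 264, 269 and 249.9 with afatinib and 117, 113 and 118 with the combination. In both genes all 4 groups were separate, the combination was lowest and romidepsin lay below afatinib. DDX21 changed by -0.92 ± 0.058, -0.32 ± 0.057 and -1.37 ± 0.059, and MYBBP1A by -0.98 ± 0.056, -0.77 ± 0.056 and -1.94 ± 0.058 (edgeR adjusted p of 7.35e-06 or below), so that MYBBP1A was 3.83-fold lower with both drugs.

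**Figure D2:**
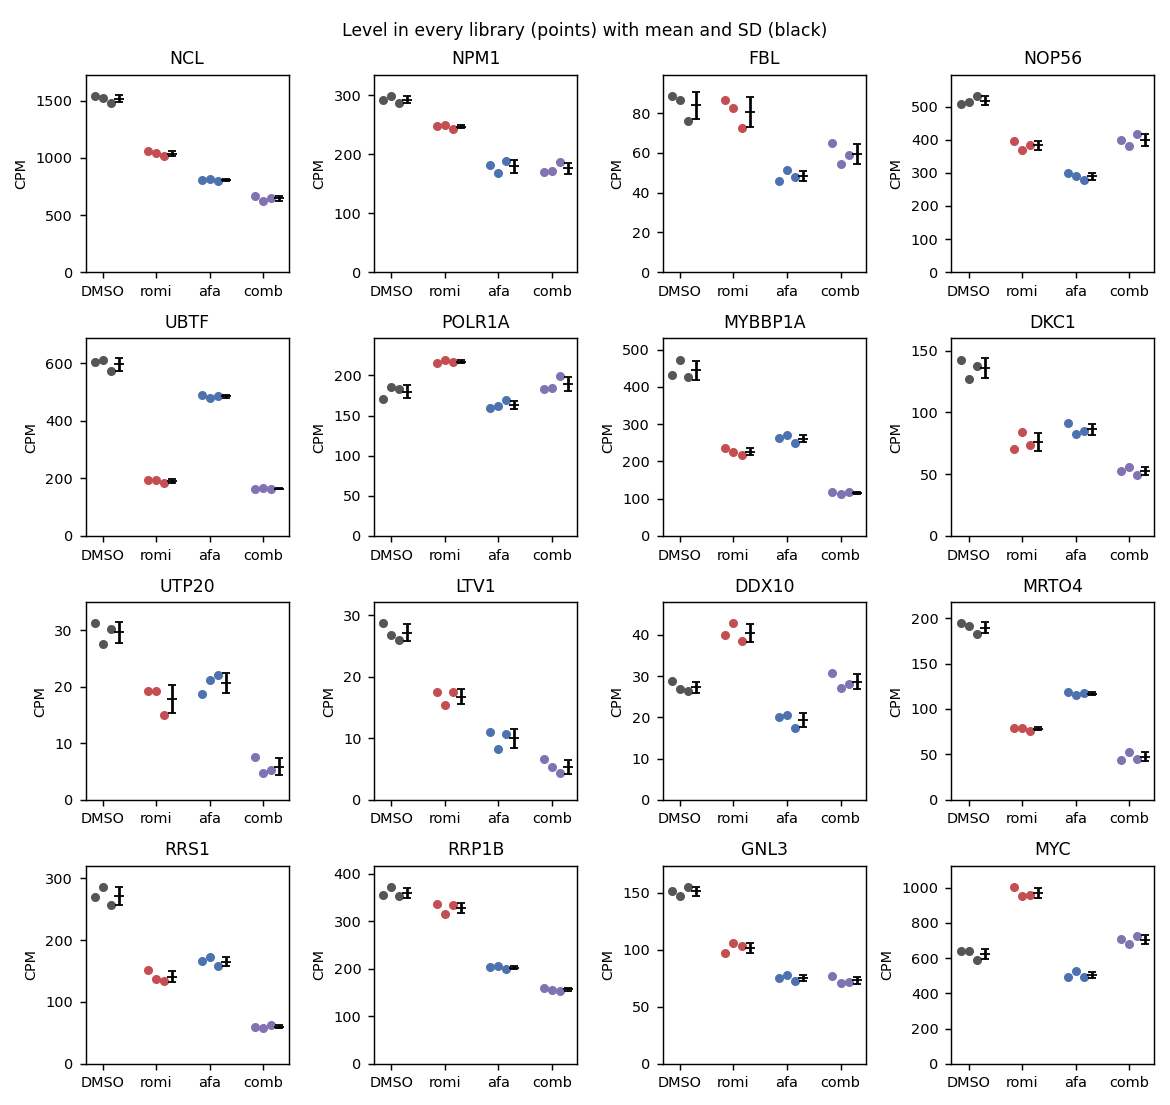
Level in CPM of 15 of the genes and of MYC in every library (coloured points), with the mean and SD of each group in black beside them and each axis starting at 0. UBTF falls mainly with romidepsin, NOP56 and FBL are lowest with afatinib, UTP20 and RRS1 are lowest with the combination, and POLR1A, DDX10 and MYC are highest with romidepsin.

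Of the 3 genes for core proteins of the box C/D particle, FBL and NOP56 were lowest with afatinib and NOP58 with the combination. FBL encodes fibrillarin, the methyltransferase of the box C/D particle, and had 88.8, 86.6 and 76.3 CPM in DMSO, 86.6, 82.7 and 72.4 with romidepsin, 45.98, 51.3 and 47.8 with afatinib and 64.8, 54.4 and 59.1 with the combination. The romidepsin libraries overlapped DMSO, the afatinib libraries were lowest, and the combination lay between them without overlap. FBL was -0.060 ± 0.077 with romidepsin (edgeR adjusted p = 0.517), -0.80 ± 0.080 with afatinib (adjusted p = 1.18e-11) and -0.50 ± 0.078 with the combination (adjusted p = 1.77e-07). NOP56, a core protein of the same particle, had 509, 514 and 534 CPM in DMSO, 396, 369 and 385 with romidepsin, 299.5, 292 and 279 with afatinib and 400.4, 382 and 417 with the combination. It too was lowest with afatinib, and its combination libraries overlapped those with romidepsin. NOP56 changed by -0.44 ± 0.053, -0.84 ± 0.054 and -0.38 ± 0.053 (edgeR adjusted p of 1.57e-08 or below), and it was higher with the combination than with afatinib by 0.46 ± 0.054 (adjusted p = 1.15e-10). Small nucleolar RNAs lie within its annotated exons (9.54% of its exon bases are shared with other genes), and reads from them cannot be told apart in this table. NOP58, the partner of NOP56, had 80.4, 98.8 and 83.5 CPM in DMSO, 65.98, 55.9 and 59.1 with romidepsin, 69.4, 70.8 and 65.7 with afatinib and 49.5, 40.6 and 51.2 with the combination, and here the combination was lowest. Its changes were -0.53 ± 0.082, -0.35 ± 0.081 and -0.89 ± 0.083, with no call between the 2 drugs (-0.18 ± 0.083, edgeR adjusted p = 0.0536) unless DMSO replicate 2, romidepsin replicate 1 or combination replicate 2 was left out (-0.25 to -0.18).

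The transcripts of the box H/ACA proteins were all lowest with the combination. DKC1, the pseudouridine synthase dyskerin, had 143, 127 and 138 CPM in DMSO, 70.4, 84.1 and 73.98 with romidepsin, 91.5, 82.5 and 84.96 with afatinib and 52.6, 55.7 and 49.6 with the combination. GAR1, which binds dyskerin, had 60.03, 64.1 and 56.6 CPM in DMSO, 37.5, 35.1 and 39.2 with romidepsin, 43.2, 41.8 and 37.98 with afatinib and 22.8, 20.8 and 22.2 with the combination. In both genes all 3 combination libraries lay below every other library, and the single-drug libraries lay below DMSO and overlapped each other. DKC1 changed by -0.84 ± 0.071, -0.65 ± 0.070 and -1.37 ± 0.072, GAR1 by -0.69 ± 0.084, -0.56 ± 0.083 and -1.46 ± 0.088, and NHP2, another core protein, by -0.41 ± 0.072, -0.45 ± 0.072 and -1.10 ± 0.074. NOP10, the smallest core protein, had 17.8, 20.6 and 14.98 CPM in DMSO, 16.8, 19.1 and 15.7 with romidepsin, 17.1, 20.2 and 17.3 with afatinib and 10.5, 10.4 and 11.3 with the combination. Its single-drug libraries overlapped DMSO, whereas its combination libraries lay below all others. The values of NOP10 were -0.050 ± 0.13 with romidepsin (edgeR adjusted p = 0.749), 0.033 ± 0.13 with afatinib (adjusted p = 0.855) and -0.72 ± 0.13 with the combination (adjusted p = 3.7e-06).

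Of the 17 genes of small subunit assembly, 9 were lower and 1 higher with romidepsin, 16 were lower with afatinib and 14 with the combination, 8 of them at least 2-fold. Of all tested genes, 31.5% were lower and 31.1% higher with romidepsin, 23.3% lower with afatinib and 37.1% with the combination, 18.3% at least 2-fold. UTP20 (chr12:101280105-101386618), a very large scaffold protein of the small subunit processome, had 31.2, 27.6 and 30.1 CPM in DMSO, 19.2, 19.2 and 15.01 with romidepsin, 18.7, 21.2 and 22.2 with afatinib and 7.57, 4.74 and 5.27 with the combination. The single-drug groups overlapped each other, and the combination libraries lay below all others by a wide margin. UTP20 was 1.67-fold lower with romidepsin (-0.74 ± 0.12), 1.43-fold lower with afatinib (-0.52 ± 0.12) and 5.11-fold lower with the combination (-2.35 ± 0.14), with edgeR adjusted p of 0.000331 or below. LTV1 (chr6:143843338-143863812), an assembly factor that leaves the particle late, in the cytoplasm, had 28.7, 26.8 and 26.02 CPM in DMSO, 17.5, 15.4 and 17.5 with romidepsin, 11.1, 8.24 and 10.8 with afatinib and 6.58, 5.27 and 4.35 with the combination. Each group was separate, with afatinib below romidepsin. LTV1 changed by -0.69 ± 0.12, -1.43 ± 0.13 and -2.34 ± 0.14 (edgeR adjusted p of 4.58e-06 or below), its afatinib change was the lowest among the 55, and 34.7% of its exon bases are shared with other annotated genes.

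NOB1, the endonuclease that makes the end of the small subunit RNA, had 48.6, 56.4 and 43.8 CPM in DMSO, 24.4, 23.9 and 25.7 with romidepsin, 42.8, 42.5 and 39.2 with afatinib and 13.7, 13.1 and 13.2 with the combination. WDR43, a subunit of the complex that starts processome assembly on the new transcript, had 240.1, 238 and 230.0 CPM in DMSO, 127, 136 and 127 with romidepsin, 167, 167 and 180.0 with afatinib and 64.1, 66.3 and 58.3 with the combination. Both were well below DMSO with romidepsin, somewhat below DMSO with afatinib, and lowest with the combination, with no overlap of groups. NOB1 changed by -1.002 ± 0.095, -0.26 ± 0.090 and -1.89 ± 0.10, and WDR43 by -0.86 ± 0.060, -0.46 ± 0.059 and -1.91 ± 0.063 (edgeR adjusted p of 0.0171 or below). The afatinib call of NOB1 was lost without DMSO replicate 2 (-0.16) or afatinib replicate 3 (-0.20).

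Other genes of the complex of WDR43 that are among the 55 had unequal changes. The differences between these genes were not tested, and members of the complex outside the 55 are not described here. With the combination UTP4 was at -0.86 ± 0.14, UTP15 at -1.07 ± 0.11, HEATR1 at -0.91 ± 0.081 and WDR75 at 0.14 ± 0.11, the last not called (edgeR adjusted p = 0.232) unless libraries were scaled by size alone (0.24). HEATR1 did not pass the test with romidepsin (-0.0033 ± 0.077, edgeR adjusted p = 0.974) and fell with afatinib (-0.42 ± 0.079). WDR75 fell with afatinib (-0.34 ± 0.11, edgeR adjusted p = 0.0108), a call that was lost without afatinib replicate 1 (-0.28) or replicate 3 (-0.31). DDX10, a DEAD-box RNA helicase, went the opposite way with the 2 drugs, at 28.8, 26.8 and 26.3 CPM in DMSO, 40.04, 42.7 and 38.4 with romidepsin, 20.2, 20.6 and 17.4 with afatinib and 30.7, 27.2 and 27.96 with the combination. Its romidepsin libraries lay above DMSO, its afatinib libraries below, and its combination libraries overlapped DMSO. DDX10 rose by 0.56 ± 0.095 with romidepsin (edgeR adjusted p = 1.19e-06), fell with afatinib (-0.50 ± 0.10, adjusted p = 7.07e-05) and was 0.064 ± 0.10 with the combination (adjusted p = 0.558).

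TSR1, a GTPase-like factor of late particles, IMP4, a protein of the U3 particle, NOP14, a processome protein, and BYSL, the assembly factor bystin, fell in all 3 treated groups and were at -1.70, -1.43, -1.47 and -0.96 with the combination (log2). RRP9, a U3 protein, RRP12, an export factor of the subunits, and NAT10, an RNA acetyltransferase, were not called with romidepsin and fell with afatinib (-0.35, -0.43 and -0.68) and with the combination (-0.27, -0.84 and -0.78). RCL1, which cuts the precursor RNA, was 0.24 ± 0.13, -0.17 ± 0.13 and -0.036 ± 0.13 and not called in any of the 3 (edgeR adjusted p = 0.11, 0.32 and 0.814), although the first became a call without DMSO replicate 1 (0.36). The combination call of RRP9 was lost without DMSO replicate 1 (-0.19) or combination replicate 2 (-0.18).

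Of the 19 genes of large subunit assembly, 14 were lower with romidepsin, 17 with afatinib and 18 with the combination, 9 of them at least 2-fold. The shares of all tested genes were 31.5%, 23.3% and 37.1%, with 18.3% at least 2-fold lower with the combination. MRTO4, which holds the place of the ribosomal stalk during assembly, had 194, 192 and 183 CPM in DMSO, 78.96, 79.2 and 76.2 with romidepsin, 118, 115 and 117 with afatinib and 43.7, 52.8 and 45.4 with the combination. Its groups were separate, in the order DMSO, afatinib, romidepsin and combination, and its changes were -1.28 ± 0.066, -0.70 ± 0.063 and -1.999 ± 0.068 (edgeR adjusted p of 6.02e-13 or below). RRS1, a factor for loading the small ribonucleoprotein that carries the free ribosomal RNA into the large subunit, had 270.1, 285 and 256 CPM in DMSO, 152, 137 and 134 with romidepsin, 165, 173 and 157 with afatinib and 59.6, 58.3 and 62.3 with the combination. The combination libraries were at most 62.3 CPM where the lowest single-drug library was at 134. RRS1 changed by -0.94 ± 0.061, -0.71 ± 0.060 and -2.17 ± 0.065, 4.50-fold lower with both drugs (edgeR adjusted p = 2.78e-32). GNL3 encodes nucleostemin, a GTPase of proliferating cells, and had 152, 147 and 155 CPM in DMSO, 96.9, 106 and 103 with romidepsin, 75.2, 78.2 and 72.8 with afatinib and 76.9, 70.7 and 71.9 with the combination. Its afatinib and combination libraries overlapped and lay below romidepsin, which lay below DMSO. GNL3 changed by -0.57 ± 0.063, -1.01 ± 0.064 and -1.05 ± 0.064, and the combination differed from afatinib by -0.043 ± 0.066 (edgeR adjusted p = 0.577, 95% interval -0.17 to 0.087).

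PES1, BOP1 and WDR12 form 1 complex that processes the precursor of the large subunit, and their transcripts fell by unequal amounts. PES1 had 135, 137 and 123 CPM in DMSO, 98.5, 91.7 and 89.5 with romidepsin, 84.2, 81.04 and 80.1 with afatinib and 41.8, 38.8 and 48.8 with the combination, and BOP1 had 339, 362 and 329.6 CPM in DMSO, 337, 282 and 295 with romidepsin, 267, 266 and 248 with afatinib and 245, 234 and 261 with the combination. WDR12 had 59.9, 59.7 and 60.01 CPM in DMSO, 54.99, 66.2 and 60.3 with romidepsin, 48.5, 49.9 and 46.98 with afatinib and 51.1, 54.9 and 45.1 with the combination. With the combination the libraries of all 3 genes lay below DMSO, by -1.61 ± 0.074 for PES1, -0.48 ± 0.060 for BOP1 and -0.25 ± 0.080 for WDR12 (edgeR adjusted p = 1.12e-24, 1.1e-09 and 0.00481). The differences between genes were not tested. The call of WDR12 was lost without DMSO replicate 1 (-0.20) or combination replicate 3 (-0.18). RRP1B, a nucleolar partner of a protein phosphatase, fell mainly with afatinib, from 354, 371 and 352 CPM in DMSO to 335, 316 and 334 with romidepsin and 202, 206 and 199 with afatinib, and was at 159.8, 155 and 154 with the combination. The romidepsin call of RRP1B (-0.13 ± 0.053) was lost without any of 7 single libraries (-0.14 to -0.10), and that of BOP1 (-0.17 ± 0.060) without DMSO replicate 1 or 2 or romidepsin replicate 2 or 3 (-0.16 to -0.12). NOC2L and NOC3L, which travel with the early large subunit, did not pass the test with romidepsin (0.094 ± 0.067 and 0.043 ± 0.092, edgeR adjusted p = 0.22 and 0.703, with NOC2L called higher at 0.17 without DMSO replicate 2) and fell with afatinib (-0.68 ± 0.069 and -0.43 ± 0.10) and with the combination (-0.58 ± 0.068 and -0.72 ± 0.10).

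Among the other large subunit factors, NOP16, DDX56, PPAN, NIP7 and DDX51 fell with both drugs and were at -1.83, -1.19, -1.01, -0.73 and -0.97 with the combination (log2). DDX56 and DDX51 are DEAD-box helicases. The afatinib call of DDX51 (-0.20 ± 0.066) was lost without DMSO replicate 1 or afatinib replicate 1 or 3 (-0.19 to -0.16). DDX18, another helicase, went from -0.17 ± 0.065 with romidepsin, a call lost without DMSO replicate 1, romidepsin replicate 1 or afatinib replicate 1 or 3 (-0.15 to -0.095), to -1.09 ± 0.068 with both drugs. GNL2, a GTPase, and EBNA1BP2, an early factor of the large subunit, were at -0.69 and -0.62 with the combination. NOP2, an RNA methyltransferase, was -0.16 ± 0.20, 0.18 ± 0.19 and 0.22 ± 0.19 and was not called in any of the 3 (edgeR adjusted p = 0.49, 0.471 and 0.282). Its exons overlap an annotated neighbour over 54.4% of their bases, and those of PPAN over 49.2%, so the counts of both are uncertain. Smaller parts of the exon bases are shared in other genes of the 55. They include NHP2 (27.6%), HEATR1 (23.1%), TSR1 (20.8%), NOP14 (20.7%), EBNA1BP2 (20.5%), NOB1 (20.4%), NIP7 (20.2%) and RRS1 (11.3%). Among the 35 of the 55 genes with under 5% of exon bases shared, 22 were lower with romidepsin, 31 with afatinib and 30 with the combination, with medians of -0.24, -0.50 and -0.86. Of all tested genes 31.5%, 23.3% and 37.1% were lower in the same order.

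**Figure D3:**
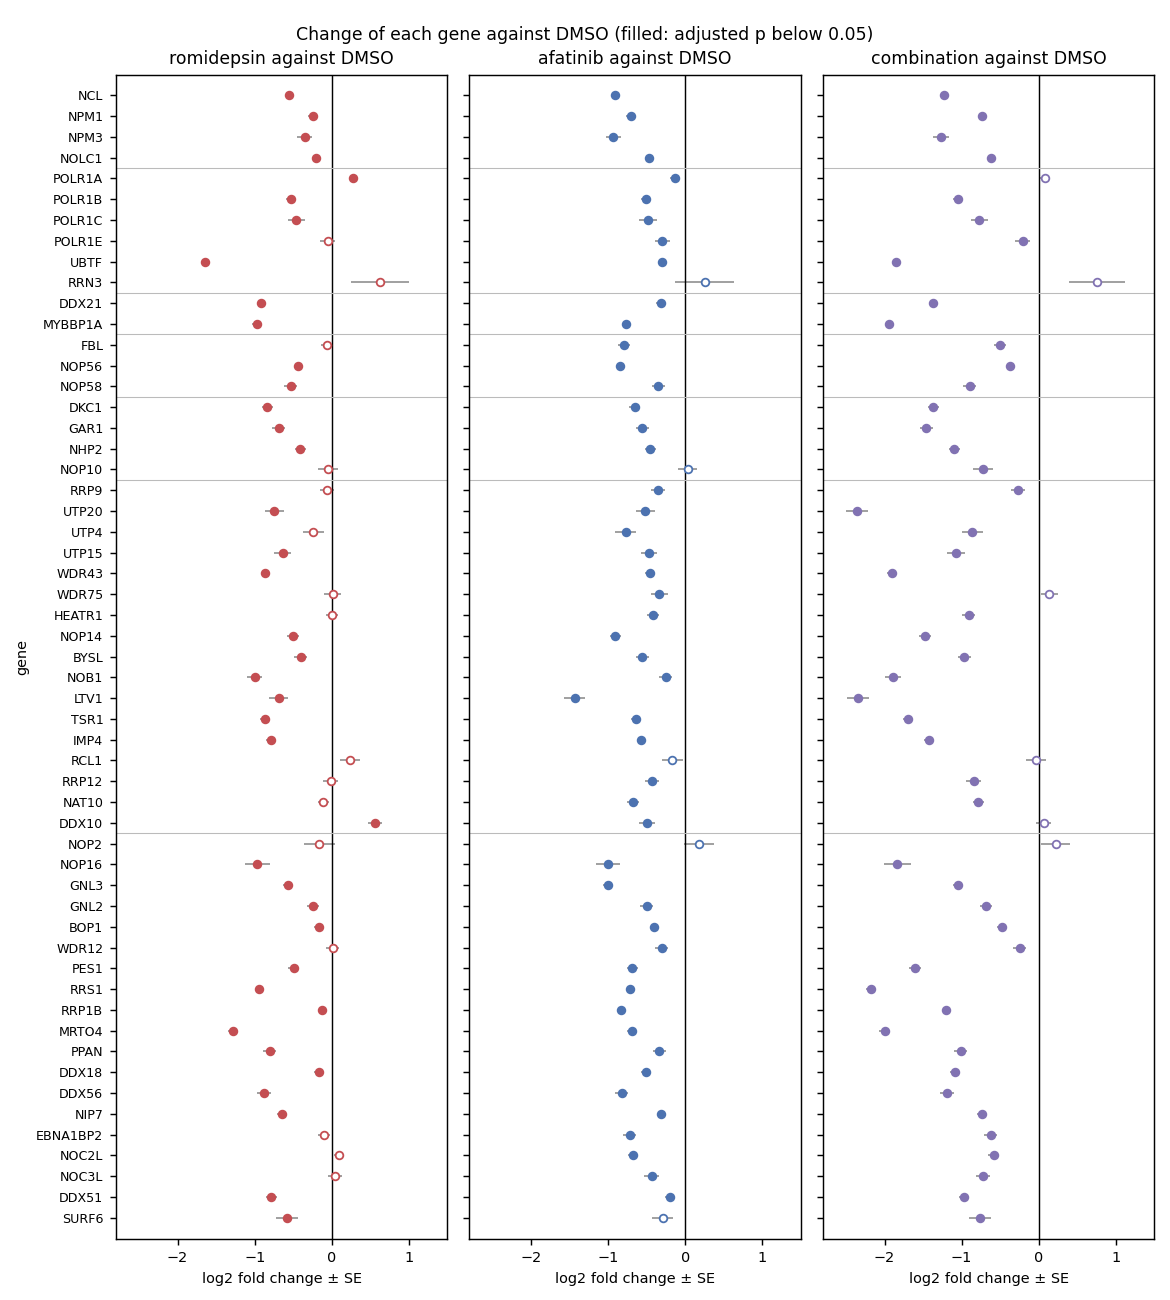
Log2 fold change against DMSO with its SE for each of the 55 genes, in the order of their roles, for romidepsin (left), afatinib (middle) and the combination (right). Filled points passed the test (edgeR adjusted p below 0.05). UBTF is the lowest with romidepsin, LTV1 with afatinib, and UTP20 and LTV1 with the combination, where 26 genes lie at -1 or below.

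The 2 drugs were then compared with each other. Romidepsin left 28 of the 55 genes higher than afatinib did and 13 lower, against 32.2% and 32.4% of all tested genes, with a median difference of 0.23 on the log2 scale. DDX10 (1.06 ± 0.10), NOC2L (0.77 ± 0.069), LTV1 (0.75 ± 0.14), FBL (0.74 ± 0.080) and RRP1B (0.70 ± 0.054) were higher with romidepsin. UBTF (-1.35 ± 0.054), NOB1 (-0.75 ± 0.10), DDX21 (-0.60 ± 0.058), MRTO4 (-0.58 ± 0.067) and DDX51 (-0.58 ± 0.068) were lower with romidepsin. These 10 genes had edgeR adjusted p of 6.77e-06 or below. All 4 genes of the nucleolar chaperones and scaffold, and 10 of the 17 small subunit genes, were on the side of higher levels with romidepsin, while both DDX21 and MYBBP1A were on the other. The remaining 14 genes were not called, which does not show that the drugs acted alike on them.

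Adding the other drug lowered most of the genes again. The combination was lower than romidepsin alone in 46 of the 55 and higher in 0, against 29.2% and 25.1% of all genes by edgeR, with 1 higher at an unadjusted p below 0.05 and 0 by DESeq2. It was lower than afatinib alone in 37 and higher in 5, against 35.8% and 33.4%. The medians of these differences were -0.52 and -0.41. In 35 genes the combination lay below DMSO and below each drug, as in 18% of all tested genes. The 5 genes higher with the combination than with afatinib were DDX10 (0.56 ± 0.10), WDR75 (0.48 ± 0.11), NOP56 (0.46 ± 0.054), FBL (0.30 ± 0.081) and POLR1A (0.21 ± 0.058), with edgeR adjusted p of 0.00127 or below.

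The interaction tested whether the effects of the drugs added up on the log2 scale. It is the combination's log2 change less those of romidepsin and afatinib. A value of 0 means that the folds of the drugs multiply. The median of the 55 summed single-drug changes was -0.96, and the median combination change was -0.96. The interaction was called below 0 in 10 of the 55 genes and above 0 in 7, against 18.5% and 11.7% of all tested genes. Both counts are near the shares of all tested genes. The value lay within 0.25 of 0 in 40 of the 55. UTP20 had the lowest value, -1.09 ± 0.19 (edgeR adjusted p = 1.21e-05), where the single drugs summed to -1.26 and the combination was -2.35. NOP10 followed with -0.71 ± 0.18, NOB1 with -0.63 ± 0.14, WDR43 with -0.58 ± 0.087, RRS1 with -0.52 ± 0.089 and HEATR1 with -0.49 ± 0.11 (edgeR adjusted p of 0.0022 or below). In UTP20, WDR43, NOB1 and RRS1 each drug alone also lowered the level, whereas in NOP10 neither single drug passed the test. On the other side NOP56 had 0.90 ± 0.075 (edgeR adjusted p = 1.76e-13), where the single drugs summed to -1.28 and the combination was -0.38. GNL3 had 0.53 ± 0.092, DDX56 0.51 ± 0.12 and WDR75 0.47 ± 0.15 (edgeR adjusted p of 0.0168 or below). FBL (0.36 ± 0.11), NCL (0.23 ± 0.071) and NPM1 (0.22 ± 0.081) were closer to 0. The call of FBL was lost without romidepsin replicate 3 (0.27) or combination replicate 1 (0.29), and that of NPM1 without any of 7 single libraries (0.17 to 0.24).

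**Figure D4:**
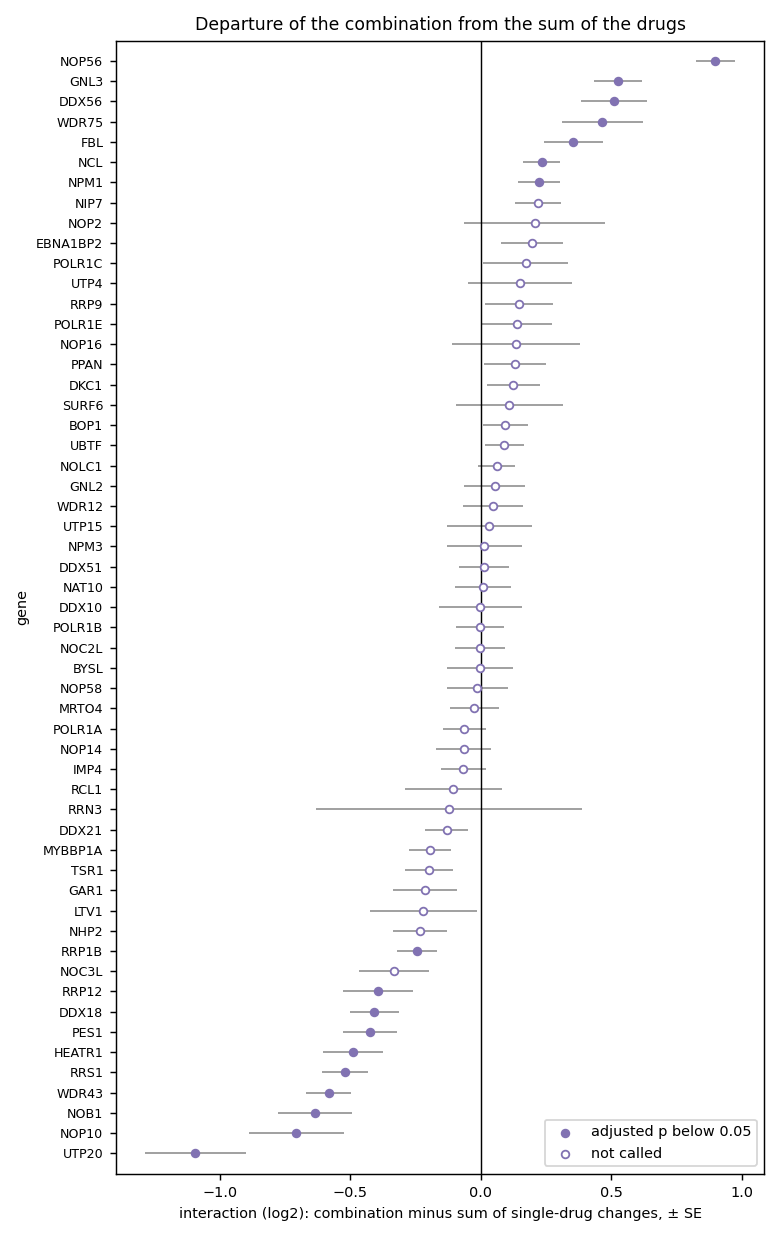
Interaction of the 2 drugs for each of the 55 genes (the combination's log2 change less those of both drugs, with SE), ordered by value, with filled points for an edgeR adjusted p below 0.05. Of the filled points 10 lie below 0, led by UTP20, and 7 above 0, led by NOP56.

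The rest of the pathway was read from further gene lists. Of 113 other tested genes of RNA polymerase I, snoRNPs and subunit assembly, 55 were lower and 21 higher with romidepsin, 84 lower and 3 higher with afatinib, and 86 lower and 9 higher with the combination, with medians of -0.21, -0.41 and -0.60. Among all tested genes, 31.5% were lower and 31.1% higher with romidepsin, 23.3% and 22% with afatinib, and 37.1% and 37.2% with the combination. TCOF1, which works with UBTF on the ribosomal DNA, was at -0.89, -0.63 and -1.83 (log2). POLR1D, a subunit shared with RNA polymerase III, rose with romidepsin (0.80 ± 0.059) and with the combination (0.98 ± 0.059). Among 43 other small subunit genes, EMG1, a methyltransferase, had the lowest combination value (-2.14 ± 0.10), and the kinases RIOK3 (1.56 ± 0.078) and RIOK2 (1.33 ± 0.10) rose. Among 48 other large subunit genes the helicase DDX54 (-2.61 ± 0.093), CCDC86 (-2.13 ± 0.066) and BRIX1 (-2.01 ± 0.10) were lowest with the combination. The genes named here passed the test at an edgeR adjusted p of 3.7e-17 or below in the combination.

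The RNA exosome, which trims the precursor, had 10 lower and 1 higher of 14 genes with romidepsin, 8 lower and 1 higher with afatinib and 11 lower and 1 higher with the combination. The import receptors and exporter that carry ribosomal proteins and subunits were lower in 5, 5 and 6 of 6 in the same order, and the import receptor TNPO1 was the 1 higher with afatinib (0.22 ± 0.061, edgeR adjusted p = 0.00255). They were led with the combination by the export receptor XPO1 (-1.91 ± 0.057) and the import receptor KPNB1 (-1.85 ± 0.055). Of 22 RNA polymerase III genes, 14 lower and 3 higher were called with the combination. The 76 cytosolic ribosomal protein genes shifted less than the 55, with medians of -0.12, -0.26 and -0.24 and calls of 33 lower and 10 higher, 52 lower and 0 higher, and 45 lower and 7 higher with romidepsin, afatinib and the combination. With afatinib, 2 of the 76 were higher at an unadjusted p below 0.05 by edgeR, and 0 were called higher by DESeq2. Ribosomal protein genes have many processed copies in the genome, and reads shared with a copy were left out of the counts. The 19 snoRNA host genes divided more evenly, with 12 lower and 2 higher, 9 lower and 6 higher and 8 lower and 8 higher. In the interaction 12 of them and 27 of the 76 ribosomal protein genes were called above 0, against 11.7% of all tested genes. SNHG1 (1.40 ± 0.061) rose and SNHG3 (-1.73 ± 0.060) fell with the combination (edgeR adjusted p of 9.46e-26 or below). Shares of all tested genes lower and higher were 31.5% and 31.1% with romidepsin and 23.3% and 22% with afatinib. With the combination they were 37.1% and 37.2%. These lists are described by their counts alone, and no difference between lists was tested.

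**Figure D5:**
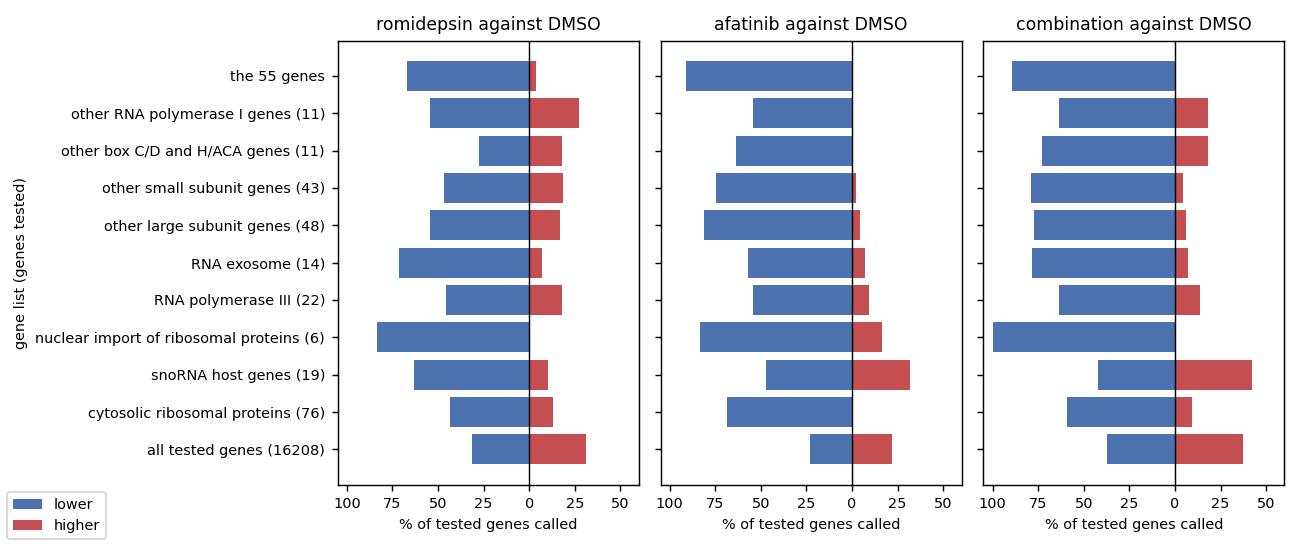
Percentage of tested genes called lower (blue, drawn to the left) and higher (red, drawn to the right) than DMSO in each gene list, with the number of tested genes in brackets, for romidepsin, afatinib and the combination. The 55 genes are at the top and all 16208 tested genes, which divide almost evenly, at the bottom.

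MYC rose with romidepsin and with the combination, where most of the 55 genes were lower. Its level was 639.7, 639 and 590.0 CPM in DMSO, 1001, 952 and 956 with romidepsin, 493, 525 and 491 with afatinib and 709, 679 and 727 with the combination. The romidepsin libraries were the highest of all, afatinib lay below DMSO, and the combination lay above DMSO, with no overlap between groups. The log2 changes of MYC were 0.64 ± 0.052 with romidepsin, -0.31 ± 0.053 with afatinib and 0.18 ± 0.052 with the combination, each with an edgeR adjusted p of 0.0022 or below. Without the libraries with KRT5 the afatinib value was -0.18 and not called. MXD1, MXI1 and MXD4 encode proteins that pair with MAX in place of MYC. In the list of 11 genes of the MYC network they rose with the combination by 3.53 ± 0.12, 1.82 ± 0.10 and 1.34 ± 0.072 (edgeR adjusted p of 3.25e-22 or below). Their means were 6.48, 14.8 and 54.5 CPM in DMSO and 36.4, 42.3 and 118 with romidepsin alone. With afatinib they were 9.79, 15.3 and 56.3. In the same list MNT and MXD3 went from 76.4 and 39.6 CPM in DMSO to 50.8 and 31.6 with romidepsin. Among the 11 genes, 6 were called higher and 3 lower with romidepsin, against 31.1% and 31.5% of all tested genes. Of the 47 genes with a promoter window, the 23 with an E-box and the 24 without one had medians of -0.50 and -0.49 with romidepsin. With afatinib these were -0.56 and -0.48, and with the combination -0.96 and -0.99. For the combination they were -0.64 and -0.46 against romidepsin, and -0.47 and -0.40 against afatinib. With and without a GC box the medians were -0.53 and -0.20 with romidepsin and -0.51 and -0.50 with afatinib. With the combination they were -1.04 and -0.73 against DMSO, -0.56 and -0.29 against romidepsin, and -0.53 and -0.062 against afatinib. For the ETS core they were -0.53 and -0.47, -0.51 and -0.51, and -0.77 and -1.06 with romidepsin, afatinib and the combination. The combination had -0.52 and -0.54 against romidepsin, and -0.42 and -0.45 against afatinib. These medians are a description, and a part of any motif or of MYC in the changes was not tested.

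Levels can be compared between genes only per length of exon. On that scale NCL was the most abundant in DMSO at 223 CPM per kb of exon, followed by RRS1 at 157, NOLC1 at 155 and NHP2 at 135, while UTP20 was at 2.95, NOP2 at 1.26 and RRN3 at 0.303. Across the 55 genes the log2 level per kb in DMSO and the log2 change had a Pearson correlation of -0.47 for romidepsin, -0.40 for afatinib and -0.45 for the combination. This is a correlation across genes of the same libraries, which are not independent replicates, and the DMSO level enters both measures.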

How the data were processed

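Per the file headers, the deposited table holds counts of read pairs per gene name, made by the authors with featureCounts 2.0.0 and GENCODE 31, without a strand option and without reads that map to several places. STAR 2.7.9a, GRCh38.p12 and DESeq2 1.38.1 are named in the submitters' processing notes. A second deposited table, described as normalized counts, was not used here. Groups follow the treatment given in each label, with 3 libraries in each.

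Genes were filtered with filterByExpr and scaled by TMM factors, and edgeR 4.0.16 (R 4.3.3) was fitted to 4 group means over all 12 libraries with glmQLFit (robust) and glmQLFTest, two-sided, with Benjamini-Hochberg adjustment over the 16208 tested genes and a threshold of 0.05. The SE is that of the log2 coefficient, and 95% intervals are built from it. The biological coefficient of variation was 6.13%. Replicate libraries differed by more than sampling noise (chi-square per degree of freedom of 2.05 to 8.28). On simulated counts for the comparison of the combination with DMSO (15558 genes), 62% of true 1.5-fold changes, 68% of 2-fold changes and 96% of 4-fold changes were recovered, and for the interaction (15553 genes) 48%, 66% and 93.9%.

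The 55 genes, the other lists, the motifs and the tests were chosen with earlier results of these data known. Values in every library were given for NCL, NPM1, FBL, POLR1A, UBTF and RRN3, for the called genes of each role with the most extreme change against DMSO and a mean of at least 5 CPM, for up to 6 genes of the interaction, and, chosen after their values were seen, for DDX21, NOP10, PES1, BOP1, WDR12 and RRP1B. Genes of other lists were named as up to 3 per list and direction, plus MYC, and TNPO1 was named after its values were seen. Alternatives were library size alone or DESeq2 size factors for scaling, other filters, DESeq2 1.42.0 as the test, a replicate block, the compared groups alone, and the removal of mitochondrially encoded genes, of the libraries with KRT5 reads and of each library in turn.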

Additional observations from a re-analysis of the deposited data

Results flagged for a closer look

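In 17 of the 55 genes the effect of one drug differed with the other drug present, by edgeR's test of the interaction at an adjusted p below 0.05. Of these, 10 were below 0 and 7 above 0, where 18.5% and 11.7% of all tested genes were called. Such calls were thus about as frequent among the 55 as among all tested genes, and are not a trait of this group. The values below are log2 changes of the combination beyond what both single drugs gave together, with the SE.

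Values below 0 were -1.09 ± 0.19 for UTP20, -0.71 ± 0.18 for NOP10, -0.63 ± 0.14 for NOB1, -0.58 ± 0.087 for WDR43 and -0.52 ± 0.089 for RRS1. HEATR1 had -0.49 ± 0.11, PES1 -0.42 ± 0.10, DDX18 -0.41 ± 0.095, RRP12 -0.39 ± 0.13 and RRP1B -0.24 ± 0.076. The call of RRP12 was lost in DESeq2 (-0.36) and without romidepsin replicate 1, afatinib replicate 2 or 3 or combination replicate 2, at -0.29 to -0.37.

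Values above 0 were 0.90 ± 0.075 for NOP56, 0.53 ± 0.092 for GNL3, 0.51 ± 0.12 for DDX56, 0.47 ± 0.15 for WDR75, 0.36 ± 0.11 for FBL, 0.23 ± 0.071 for NCL and 0.22 ± 0.081 for NPM1. The call of WDR75 was lost without romidepsin replicate 1 (0.39) or combination replicate 2 (0.39). Without the libraries with KRT5 reads, RRP12 (-0.46), WDR75 (0.56), FBL (0.13), NCL (0.16) and NPM1 (0.24) were not called.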

How the results depend on the processing

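No direction of a called value reversed under any alternative run. With 1 library left out at a time, 34 to 37 of the 55 genes were lower and 2 to 3 higher with romidepsin, 46 to 50 lower and 0 higher with afatinib, and 46 to 49 lower and 0 to 1 higher with the combination. In the same runs the combination was lower than romidepsin in 43 to 47 genes and lower than afatinib in 32 to 37, and the interaction was below 0 in 9 to 12 and above 0 in 5 to 8. The combination against DMSO had 3 genes higher with library size alone (POLR1A, RRN3 and WDR75), and RRN3 was the 1 gene higher with DESeq2 size factors in edgeR and the 1 gene higher with only the compared groups. The combination against romidepsin had 2 higher with library size alone (NOP2 and NOP56) and 1 with only the compared groups (NOP2). Without the 4 libraries with KRT5 reads, fewer genes were called lower with afatinib and fewer had an interaction called above 0, among the 55 and among all tested genes. This leaves 1 DMSO library, which is assumed to vary like the others.

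Library size alone moved the median of all tested genes by 0.10 (log2) in afatinib against DMSO, and the median of the 55 to -0.40. The labels do not say whether the replicate numbers pair the libraries. Deviations from the group means correlated at -0.090 to 0.089 over 18 same-numbered pairs and at -0.082 to 0.068 over 36 differently numbered pairs. No shared deviation was seen, which cannot exclude a pairing. With a replicate block, 37, 49 and 49 genes were lower with romidepsin, afatinib and the combination, 45 and 36 were lower with the combination than with romidepsin and afatinib, and the interaction had 10 below and 7 above 0. At these depths genes such as RRN3 are limited by their counts.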
